A study of Homo sapiens with 48 samples.

Results

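NGP is a human neuroblastoma cell line whose genome carries extra copies of the oncogene MYCN, and the labels give its genotype as WT. The 12 libraries described here are those of NGP cells cultured for 3 days with STM2457 or with its solvent, out of 48 libraries in the series. They fall into 6 groups of 2: cells treated with 8 µM STM2457 or with DMSO, each collected before actinomycin D (0 h) and after 3 h and 6 h with actinomycin D at 10 µg/ml. The other 36 libraries are NGP cells at 6 days and Kelly cells, another neuroblastoma line, at 3 and 6 days. All 6 groups are therefore of the same unmodified line, and the solvent-treated cells serve as controls at every time. RNA was total RNA enriched for poly(A) tails, so a transcript that lost its tail was lost from the measurement as well.

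STM2457 blocks METTL3, the catalytic subunit of the complex that adds a methyl group to the N6 position of adenosine in mRNA (m6A). The mark lies mostly in long internal exons, in last exons and around stop codons, in GGAC-like sequences, and is kept away from the neighbourhood of exon junctions. Reader proteins of the YTH family bind it and recruit deadenylases, so methylated mRNAs are as a rule short-lived, whereas readers of the IGF2BP family are known to stabilise their targets. Actinomycin D stops transcription, and what remains of an mRNA at later times is a measure of how fast it is lost.

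The quantity compared is called the decay difference: the log2 change from 0 to 6 h in STM2457 minus that in DMSO. A positive value means that a transcript was lost slower in STM2457 than in DMSO, a negative value that it was lost faster. Levels are CPM, the counts of a gene scaled to the total of all genes in its library, after TMM scaling, which aligns the bulk of genes between libraries. Every loss is therefore relative to the rest of the mRNA pool, and a stable transcript rises above 100% of its 0 h level. A gene was called when edgeR's quasi-likelihood test gave a Benjamini-Hochberg adjusted p under 0.05 over the 14661 genes tested. The labels do not say whether the 2 libraries of a group came from separate cultures, so the p-values measure the spread between these libraries, which may be technical.

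The 12 libraries held 11993189 to 19929084 fragments in genes. Per fragment of the ERCC spike-in RNA, gene fragments stood at 85.8% of the 0 h value after 3 h and 68.3% after 6 h in DMSO, and at 74.0% and 72.3% in STM2457. Of 11 markers of adrenergic neuroblastoma cells, 10 had a median of at least 10 CPM, TH being the exception at 0.850 CPM, and of 10 mesenchymal markers 4 did, FN1 (117 CPM), VIM (94.0), COL1A1 (72.8) and COL3A1 (26.7), while YAP1, CD44, NOTCH2 and TWIST2 were under 1 CPM. METTL3 itself, whose protein rather than mRNA is the drug's target, had a decay difference of 0.050 ± 0.21 (SE, adjusted p = 1). The STM2457 libraries at 6 h stood apart in genes that these cells hardly express. The 383 olfactory receptor genes summed to 21.8 and 27.9 CPM there, against 1.501 to 7.17 CPM in the other 10 libraries, and 14722 and 14963 genes had at least 1 fragment, against 13665 to 14510. The 6701 genes under 0.5 CPM at 0 h had 0.131 and 0.138 CPM per gene there, against 0.061 to 0.078 CPM in the other 10 libraries. The part of this signal in the results was not tested. The changes over 0 to 3 h, which do not use the 6 h libraries, are given beside the main results.

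Over 6 h, 103 of the 14661 genes tested (0.703%) differed in decay between STM2457 and DMSO. Loss was slower in STM2457 for 67 genes (0.457% of those tested) and faster for 36 (0.246%), and 1348 genes had an unadjusted p under 0.05. The slower and the faster genes were of different kinds. The slower ones were short-lived transcripts: their median log2 change over 6 h was -1.29 in DMSO and -0.37 in STM2457. In DMSO 58 of the 67 fell significantly and in STM2457 34, where 37.4% and 32.5% of all genes tested were called, higher or lower. The faster ones were stable, abundant transcripts that gained in share of the mRNA pool in DMSO, with a median change of 0.63, and gained less in STM2457, with 0.16. In DMSO 31 of the 36 rose significantly and in STM2457 18. The change in DMSO is part of the contrast that chose these genes, but in the separate libraries of NGP at 6 days, too, 37 of the 67 slower genes (55.2%) lay in the quintile of genes most lost in DMSO, which holds 20.01% of all genes, and 22 of the 36 faster ones in the 2 most stable quintiles. For most of the 36, faster loss means a smaller gain, and ATF4 was the 1 gene among them that fell significantly in DMSO.

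The balance between the directions depended on the scaling. With the ERCC spike-ins as reference, which put all genes 0.15 higher on the log2 scale of the decay difference, 154 genes were slower and 4 faster, and with library size alone 88 were slower and 14 faster. All 67 slower genes were called slower under each of these, and all 36 faster genes kept a negative sign. With the 6 h libraries left out, 3 genes were called slower over 0 to 3 h and none faster, and 65 of the 67 and 35 of the 36 had the same sign over that span, which shares its 0 h libraries with the longer one and gave the same sign for 9738 of all 14661 genes. A straight line through the 3 times called 10 slower genes and no faster ones, and limma-voom 34 and 20. Among the genes described here, BYSL, JUND, FAM222A, SOX12, FEN1, TWIST1 and TRIM8 were called slower in each of the 11 alternative fits of the same span, and no faster gene was.

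**Figure D1:**
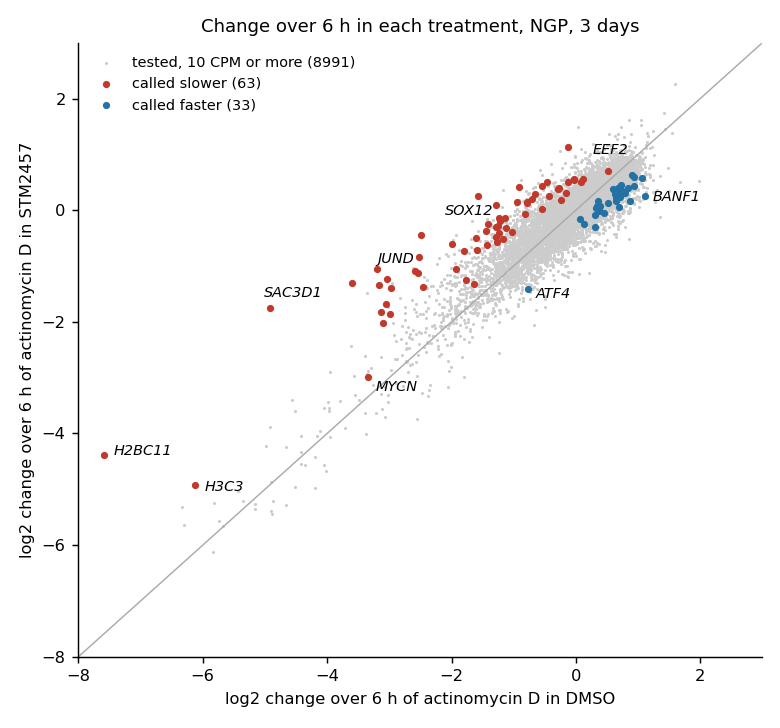
The log2 change over 6 h of actinomycin D in DMSO (horizontal axis) is plotted against that in STM2457 (vertical axis) for the 8991 tested genes at 10 CPM or more, 1 point a gene; the line marks equal change. The 63 genes called slower lie above the line and mostly at negative changes in DMSO, and the 33 called faster lie below it, all but ATF4 at changes above 0 in DMSO.

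The largest slowdowns, among genes averaging at least 10 CPM with the same sign over 0 to 3 h, were in transcripts of which at most 24.8% of the 0 h level was left in DMSO at 6 h. H2BC11, a gene for the core histone H2B, had 90.7 and 102 CPM at 0 h and 0.405 and 0.608 CPM at 6 h in DMSO. In STM2457 it had 70.9 and 66.0 CPM and 3.75 and 2.747 CPM. The treated libraries were the lower ones at 0 h and the higher ones at 6 h, with no overlap at either time. At 3 h the groups overlapped, at 3.95 and 1.68 CPM in DMSO and 1.94 and 3.83 CPM in STM2457. The decay difference was 3.20 ± 0.53 (SE, adjusted p = 7.36e-05). Its sequence is close to that of other H2B genes, so the split of fragments among them is uncertain. SAC3D1, a small gene of 3 exon blocks on chromosome 11, went from 25.2 and 31.1 CPM to 1.39 and 0.380 CPM in DMSO and from 27.1 and 27.4 CPM to 9.13 and 7.06 CPM in STM2457. Treated and control libraries were alike at 0 h and far apart at 6 h (3.17 ± 0.65, adjusted p = 0.00328). BYSL, which encodes bystin, a factor in the maturation of the small ribosomal subunit, went from 40.5 and 42.0 CPM to 9.14 and 5.32 CPM in DMSO, but only from 43.5 and 38.6 CPM to 29.0 and 31.3 CPM in STM2457 (2.05 ± 0.31, adjusted p = 2.52e-05). After 6 h 17.5% of its 0 h level was left in DMSO and 73.4% in STM2457. Over 0 to 3 h the differences of H2BC11, SAC3D1 and BYSL were 0.48 ± 0.42, 0.60 ± 0.56 and 0.37 ± 0.30, none of them called.

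JUND, a member of the AP-1 transcription factor family encoded by a gene without introns, had 89.6 and 88.4 CPM at 0 h, 34.8 and 42.9 CPM at 3 h and 14.5 and 14.98 CPM at 6 h in DMSO. In STM2457 the values were 90.9 and 88.5, 73.0 and 63.8 and 38.3 and 46.1 CPM. The groups overlapped at 0 h and were separate at 3 and 6 h, with a decay difference of 1.503 ± 0.23 (adjusted p = 2.68e-05). HPDL, a gene without introns for a mitochondrial enzyme, kept 11.04% of its 0 h level in DMSO and 48.3% in STM2457 at 6 h (2.15). FEM1A, a substrate receptor of a ubiquitin ligase, also without introns, kept 12.9% and 38.2% (1.58). The zinc finger genes ZNF853 and ZNF263 kept 8.38% and 12.1% in DMSO and 40.3% and 42.7% in STM2457, with decay differences of 2.28 and 1.81. UQCRFS1, the Rieske iron-sulfur subunit of respiratory complex III, kept 24.8% and 65.7% (1.38). RAB33A, a small GTPase (1.83), LRRC61 (1.68) and FAM222A (1.41) complete the 12 largest, all of them lower at 6 h in both DMSO libraries than in both STM2457 libraries. Of these, ZNF263 shares 35.9% of its exon bases with TIGD7 on the other strand and LRRC61 23.8% with ZBED6CL on the same strand, so their fragments may in part belong to the neighbour. RAB33A and LRRC61 each lost the call when any 1 of 4 libraries was left out. UQCRFS1 lost it without the second DMSO library at 6 h, where its decay difference fell to 0.87.

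**Figure D2:**
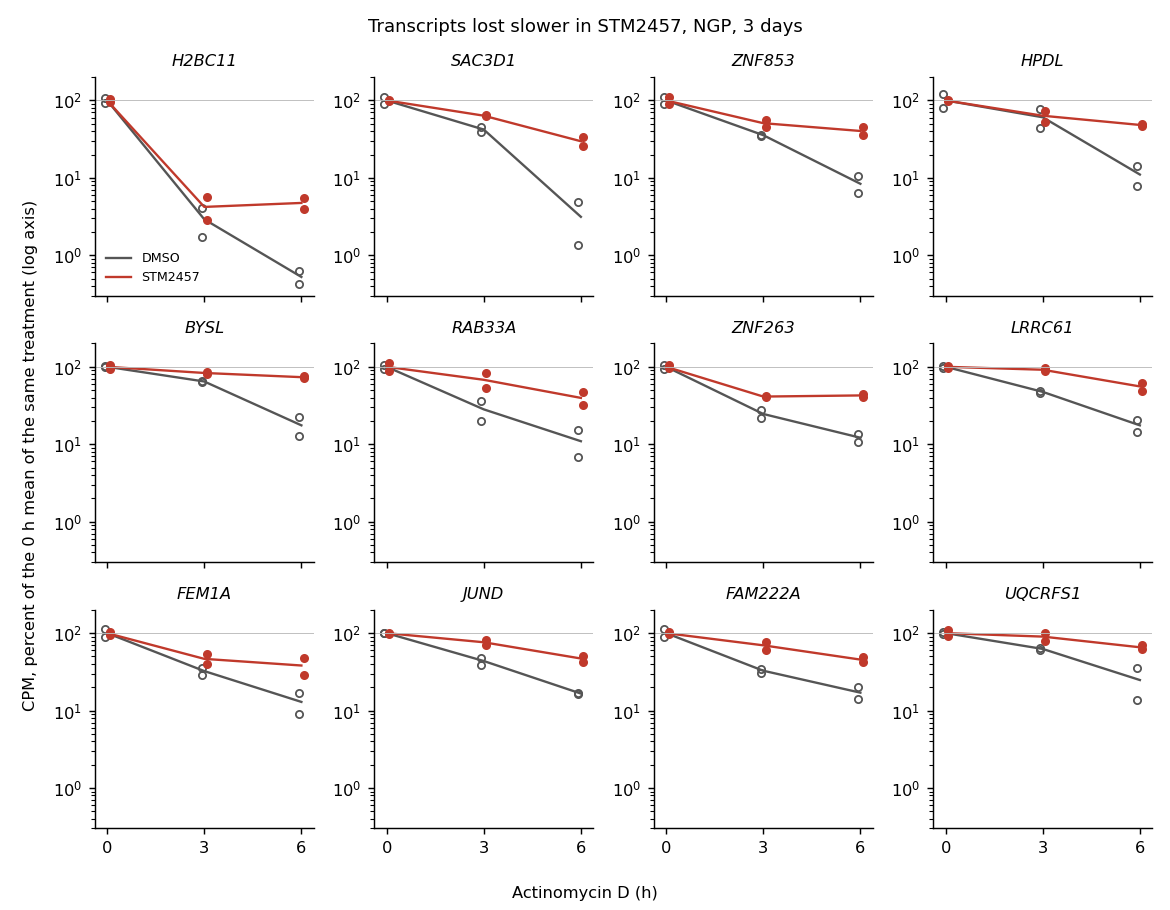
Each panel plots 1 of the 12 genes with the largest slowdown, with hours of actinomycin D on the horizontal axis and CPM as a percentage of the 0 h mean of the same treatment on the vertical, logarithmic axis; points are libraries (open for DMSO, filled for STM2457) and lines join group means. At 6 h both filled points lie above both open points in every panel.

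Because m6A gathers around stop codons, the last 120 coding bases before the end of the stop codon are shown for 3 of the 12 genes with the largest slowdown and, for comparison, 2 of the 12 with the largest faster loss, with and without the sequence that METTL3 methylates. They were read from hg38 along the GENCODE v44 canonical transcript, 5′ to 3′, with that sequence in capitals. Searched for were the letters GGAC followed by T, by A or by C (called GGAC words here), on the transcript's strand alone. All 5 stretches lie in coding sequence within 1 exon: LRRC61 at chr7:150337522-150337641 on the plus strand, SAC3D1 at chr11:65044608-65044727 on the plus strand, FEM1A at chr19:4793745-4793864 on the plus strand, BANF1 at chr11:66003653-66003772 on the plus strand and ATF4 at chr22:39522483-39522602 on the plus strand.
LRRC61: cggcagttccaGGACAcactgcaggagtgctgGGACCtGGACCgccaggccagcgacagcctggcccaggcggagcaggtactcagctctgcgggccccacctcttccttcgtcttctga
SAC3D1: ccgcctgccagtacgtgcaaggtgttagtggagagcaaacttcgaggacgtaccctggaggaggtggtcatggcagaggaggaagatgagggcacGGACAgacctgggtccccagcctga
FEM1A: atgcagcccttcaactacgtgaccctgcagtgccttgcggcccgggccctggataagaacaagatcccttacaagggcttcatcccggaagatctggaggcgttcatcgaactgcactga
BANF1: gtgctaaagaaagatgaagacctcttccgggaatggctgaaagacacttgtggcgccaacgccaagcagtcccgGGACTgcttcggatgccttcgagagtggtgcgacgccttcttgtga
ATF4: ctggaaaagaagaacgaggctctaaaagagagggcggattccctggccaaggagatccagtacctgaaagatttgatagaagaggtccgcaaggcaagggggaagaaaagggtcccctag
LRRC61 holds 3 GGAC words in this window, SAC3D1 and BANF1 1 each, and FEM1A and ATF4 none. At least 1 stood in the window of 3 of the 12 genes with the largest slowdown. Of the 12 with the largest faster loss, PCM1 was left out of this search, and 2 of the other 11 held at least 1. Over all called genes with a coding sequence, at least 1 word stood in the window of 32 of 63 slower genes (50.8%) and of 9 of 33 faster genes (27.3%), against 40.0% of the windows of all 14263 tested genes that have one. Over the whole coding sequence the median was 4.80 words per kb in slower genes, 2.36 in faster genes and 4.01 in all. The words are rich in G and C, as the slower genes are, and a match says nothing of whether a site is methylated.

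Transcription factors of the adrenergic identity of neuroblastoma were among the slower transcripts. Of 24 in the list, 4 were lost slower (SIX3, TWIST1, HAND2 and MYCN) and none faster, where 0.703% of all genes were called; the median of the 23 at 10 CPM or more was 0.011, beside -0.025 for all 8991 genes at that level. HAND2, a basic helix-loop-helix factor of sympathetic neurons, had 1281 and 1262 CPM at 0 h, 507 and 542 CPM at 3 h and 387 and 358 CPM at 6 h in DMSO. In STM2457 it had 1312 and 1295, 721 and 718 and 541 and 559 CPM. Levels differed little at 0 h and were clearly higher in both treated libraries at both later times (0.53 ± 0.078, adjusted p = 1.27e-05). MYCN, the amplified oncogene of this line, went from 5679.6 and 5564 CPM to 555 and 553 CPM in DMSO and from 4403 and 5071 CPM to 618 and 575 CPM in STM2457. Treated cells thus had less MYCN mRNA at 0 h and slightly more at 6 h, 9.86% being left in DMSO and 12.6% in STM2457 (0.35 ± 0.080, adjusted p = 0.0105). That call did not hold under DESeq2, limma-voom, removal of a length trend or a straight line through the 3 times, with values from 0.28 to 0.50 over the 11 alternative fits. TWIST1 kept 41.4% in DMSO and 67.1% in STM2457 (0.70 ± 0.12, adjusted p = 3.72e-04). SIX3, a homeobox factor, started lower in STM2457, at 29.4 and 41.7 CPM against 61.5 and 71.3 CPM, and the groups overlapped at 6 h, at 41.7 and 36.7 and 32.0 and 36.8 CPM. Its decay difference of 1.09 thus rested on the levels at 0 h. It lost the call without the second DMSO or the first STM2457 library at 0 h (adjusted p up to 0.169).

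Short-lived response genes, such as immediate early genes and other rapidly degraded mRNAs, moved little in the median. Of 71 tested, JUND, SOX12 and MYCN were slower (4.23%, beside 0.457% of all genes) and none faster. The median decay difference of the 40 at 10 CPM or more was 0.016, although their median change over 6 h was -1.97 in DMSO. SOX12, an intronless gene for a factor of the SOXC family, had the smallest adjusted p of all. Its levels were 181 and 170.4 CPM at 0 h, 101 and 106 CPM at 3 h and 65.8 and 66.8 CPM at 6 h in DMSO. In STM2457 they were 234 and 227, 202 and 228 and 191 and 198 CPM. The treated libraries were higher at every time, 84.5% being left at 6 h against 37.7% (1.17 ± 0.13, adjusted p = 6.97e-09). Most rapidly lost transcripts were still not called. Of the 2933 genes in the quintile most lost in DMSO at 6 days, 37 were slower (1.26%), a larger share than the 0.457% of all genes.

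FEN1, the flap endonuclease that trims Okazaki fragments, had 96.0 and 104 CPM at 0 h and 60.2 and 55.3 CPM at 6 h in DMSO, against 135 and 142 and 159 and 143 CPM in STM2457. The treated libraries were the higher ones at both times, and 57.6% of the 0 h level was left in DMSO against 109% in STM2457 (0.92 ± 0.16, adjusted p = 1.47e-04). MCM3, a subunit of the replicative helicase, kept 85.1% and 113% (0.41 ± 0.089, adjusted p = 0.00692), a call lost without the first DMSO library at 0 h (adjusted p = 0.0581). FEN1 and MCM3 were the called members among 50 S phase genes (4% slower, beside 0.457% of all genes). The median of the 49 at 10 CPM or more was -0.012, near that of all genes. HSPA5, the chaperone BiP of the endoplasmic reticulum, had 309 and 294 CPM at 0 h and 127 and 127 CPM at 6 h in DMSO, and 243 and 233 and 189 and 202 CPM in STM2457. It was lower in treated cells before actinomycin D and higher after 6 h (0.96 ± 0.12, adjusted p = 4.46e-08). HSPA1B, an inducible cytosolic HSP70 with a near-identical neighbour, HSPA1A, kept 68.7% and 135% (0.98). It was the 1 member called of 28 heat shock chaperones (3.57% slower), of which 14 of 26 at 10 CPM or more had a positive value, and it lost the call when any 1 of 4 libraries was left out (adjusted p up to 0.216).

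Other lists held few called members. Of 71 histone genes, H2BC11, H3C3 and H2AC6, a gene for the core histone H2A, were slower (4.23%, beside 0.457% of all genes) and none faster. Histone mRNAs had the most negative median change over 6 h of the 31 lists, at -4.19 in DMSO and -4.05 in STM2457, and most have no poly(A) tail, so that this assay sees the tailed minority. H3C3 was left at 1.46% and 3.29% at 6 h (1.20), but over 0 to 3 h its difference had the opposite sign (-0.58). Of 446 zinc finger genes, 2 were slower (ZNF853 and ZNF263), a share of 0.448% beside 0.457% of all genes, with a median of 0.050 over the 220 at 10 CPM or more. Of 77 mitochondrial ribosomal proteins, MRPS2 was slower (1.08 ± 0.27, adjusted p = 0.0277; lost when any 1 of 4 libraries was left out, adjusted p up to 0.202), and 45 of the 70 at 10 CPM or more had a positive value, with a median of 0.094. TRIM8, a ubiquitin ligase, kept 28.8% in DMSO and 60.04% in STM2457 (1.06 ± 0.19, adjusted p = 3.99e-04). Among translation factors, EEF1AKNMT, which methylates the elongation factor eEF1A, was slower (1.01, lost when any 1 of 3 libraries was left out). So was, by a little, EEF2, the elongation factor that moves the ribosome along (0.18), while EIF3E, a subunit of an initiation factor, was faster (-0.40, lost when any 1 of 7 libraries was left out). No member of the m6A writer complex (12 genes, median 0.029), the mRNA decay machinery (63 genes, -0.11) or the chromatin modifiers (97 genes, -0.038) was called by edgeR. Among 15 m6A readers and erasers, ALKBH5, an m6A demethylase, was slower, with 95.3 and 90.0 CPM at 6 h in DMSO and 151 and 145 CPM in STM2457 from about the same level at 0 h (0.65 ± 0.16, adjusted p = 0.0234). IGF2BP1, an m6A reader, was faster (-0.31 ± 0.074, adjusted p = 0.0186). Each was 6.67% of that list, beside 0.457% of all genes slower and 0.246% faster. The calls of ALKBH5 and IGF2BP1 were lost when any 1 of 5 and of 6 libraries was left out, at adjusted p up to 0.079 and 0.211.

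Among the 12 genes with the largest faster loss the smallest adjusted p was that of ATF4, the transcription factor of the integrated stress response. It had 280.2 and 284 CPM at 0 h, 176 and 188 CPM at 3 h and 165 and 167 CPM at 6 h in DMSO. In STM2457 it had 257 and 249, 118 and 119 and 96.0 and 93.6 CPM. Treated libraries were lower at every time and the gap grew, 59.0% being left in DMSO and 37.5% in STM2457 (-0.65 ± 0.12, adjusted p = 6.20e-04). MTHFD2, a mitochondrial folate enzyme and known ATF4 target, rose to 178% of its 0 h level in DMSO and to 131% in STM2457 (-0.44); it shares 33.6% of its exon bases with SLC4A5 on the other strand. With CHAC1, which lay under 4 CPM throughout and had counts down to 0, 3 of 30 amino acid response genes were faster, where 0.246% of all genes were, and none slower, and the median of the 22 at 10 CPM or more was 0.027.

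Of the other 11 of the 12 genes with the largest faster loss, 5 had 20 or more exon blocks, the separate stretches of exon left when all isoforms are merged. BANF1, a DNA-binding protein of the nuclear envelope, rose from 48.4 and 47.5 CPM to 105 and 102 CPM in DMSO and from 59.3 and 55.7 CPM to 63.7 and 73.7 CPM in STM2457 (-0.86 ± 0.20, adjusted p = 0.0157). Treated libraries were higher at 0 h and lower at 6 h. The actin-binding protein profilin (PFN1) rose to 191% in DMSO and 135% in STM2457, and the ferritin heavy chain gene (FTH1) to 209.7% and 149%; FTH1 shares 63.2% of its exon bases with BEST1 on the other strand. ANK2, which encodes ankyrin-B and has 66 exon blocks, went to 136% and 96.6%, and PCM1, a scaffold of centriolar satellites with 44 blocks, to 156% and 112% (-0.48 ± 0.093, adjusted p = 0.00112). CENPE and CENPF, kinetochore proteins with 49 and 24 blocks, were faster, at -0.48 and -0.27. They were the called members among 54 mitosis genes (3.70% faster, beside 0.246% of all genes). The median of the 53 at 10 CPM or more was -0.11, and 11 had a positive value. MAP2, a microtubule protein of dendrites, was faster (-0.40, lost when any 1 of 4 libraries was left out). It was the called member of 55 neuronal differentiation genes (1.82% faster), whose median was -0.10. MUC4 (-0.71), OXSR1 (-0.64), OSBPL9 (-0.61) and TM9SF3 (-0.48) complete the 12 largest, and HNRNPDL, a splicing regulator, was faster by less (-0.37). Of the 12 largest, ATF4 and PCM1 kept their calls in all 12 fits that leave out a library; OSBPL9 lost it without the first DMSO library at 0 h (adjusted p = 0.0593), and the other 9 lost it without 2 to 8 of the libraries, with adjusted p up to 0.315.

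Ribosomal protein and mitochondrial transcripts showed small differences at high precision. RPL5 rose from 1494 and 1458 CPM to 2366 and 2336 CPM in DMSO and from 1283 and 1235 CPM to 1672 and 1662 CPM in STM2457 (-0.27 ± 0.051, adjusted p = 0.00112). RPL23 was the other called member of 85 cytosolic ribosomal proteins (-0.28), a call lost when any 1 of 7 libraries was left out (adjusted p up to 0.41). Faster were thus 2.35% of that list, beside 0.246% of all genes. The median of the 82 at 10 CPM or more was -0.063, and 27 had a positive value. The 13 mRNAs encoded by the mitochondrial genome are transcribed by a separate polymerase and carry short tails of their own. Of these, MT-ND4, MT-CO1, MT-CO2 and MT-CO3 were faster (30.8%, beside 0.246% of all genes) and MT-ND2 was slower (7.69%, beside 0.457%). MT-ND4, a subunit of complex I, had 5383 and 5684 CPM at 0 h and 7429 and 8359.7 CPM at 6 h in DMSO, and 6337 and 6788 and 7238 and 7150.4 CPM in STM2457 (-0.38 ± 0.061, adjusted p = 6.37e-05). MT-CO3, a subunit of complex IV, overlapped between the groups at 6 h. Its difference of -0.27 came from a higher level in treated cells at 0 h. It lost the call without the second DMSO library at 6 h or the second STM2457 library at 0 h. MT-ND4, MT-CO1 and MT-CO2 were also higher in treated cells at 0 h, by 0.25, 0.24 and 0.45 on the log2 scale. Their decay differences were -0.38, -0.26 and -0.21. MT-ND2, another subunit of complex I, was the mitochondrial mRNA of the 5 that fell, from 2035 and 2102 CPM to 636 and 698 CPM in DMSO and from 2525 and 2718 CPM to 1039 and 1069.6 CPM in STM2457 (0.32 ± 0.066, adjusted p = 0.0033). Mitochondrial mRNAs took up 3.63% to 5.18% of the gene fragments of a library.

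**Figure D3:**
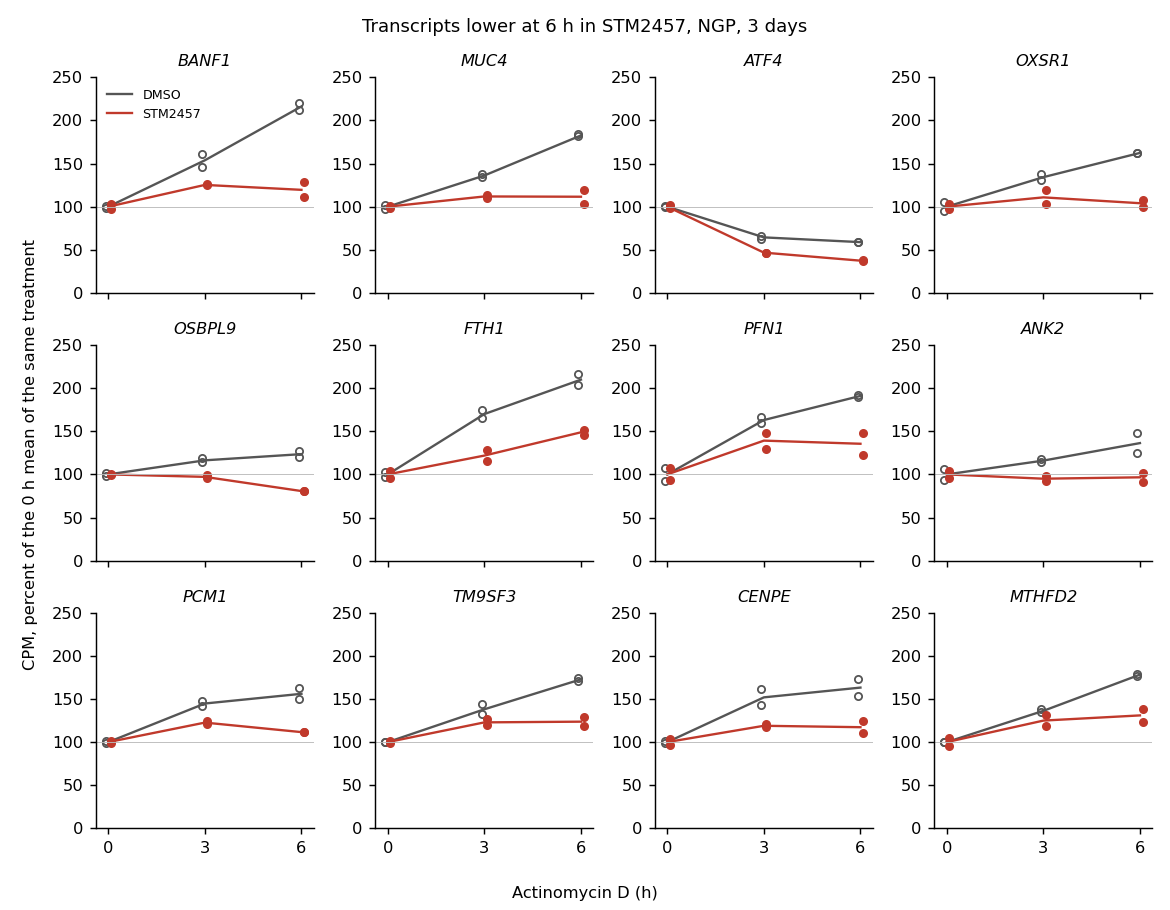
Each panel plots 1 of the 12 genes with the largest faster loss, with hours of actinomycin D on the horizontal axis and CPM as a percentage of the 0 h mean of the same treatment on the vertical axis; points are libraries (open for DMSO, filled for STM2457) and lines join group means. Except for ATF4, which falls in both, the DMSO lines rise above 100% and the STM2457 lines end lower, with both filled points below both open points at 6 h.

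The kinds of transcripts were then described by the structure of their genes. Merging the annotated exons of all isoforms gives exon blocks. With 4 or fewer were 37 of the 67 slower genes (55.2%), against 15.8% of all genes tested. A single block was found in 14, and the median was 3 against 11. Of the 36 faster genes, 14 (38.9%) had 20 or more blocks, against 22.2% of all, and the median was 12.5. With 4 or fewer were 11 (30.6%), against 15.8% of all, among them the 4 mitochondrial genes. Genes with 1 block were also often called faster, 6 of 431 (1.39%), beside 0.246% of all genes. These 6 were the 4 mitochondrial genes, RPL23 and GAS1, which lay at 3.39 CPM with counts down to 0. Called slower were 14 of 431 genes with 1 block and 23 of 1879 with 2 to 4, but 6 of 5007 with 10 to 19 and 3 of 3254 with 20 or more. The medians of all genes at 10 CPM or more ran in the same order, from 0.14 with 1 block through 0.065 (2 to 4), -0.007 (5 to 9) and -0.038 (10 to 19) to -0.062 with 20 or more. Over 0 to 3 h, without the 6 h libraries, they were 0.085, 0.026, -0.005, -0.030 and -0.042. In the separate libraries of NGP at 6 days they were 0.18, 0.047, -0.012, -0.041 and -0.031, so that the last class did not continue the order. In Kelly cells at 3 days they were 0.15, 0.038, -0.020, -0.042 and -0.048. These are small shifts of whole classes, an order of magnitude under the differences of the called genes.

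Stability and base composition ordered the transcripts as well. By quintiles of the change over 6 h in DMSO at 6 days, the median decay difference fell from 0.12 in the quintile most lost through 0.044 and -0.021 to -0.069 and -0.062 in the most stable ones, and 37, 15, 8, 4 and 3 genes were slower. By quintiles of GC content of the exons it rose from -0.11 and -0.072 through -0.010 to 0.034 and 0.10, with 1, 5, 16, 22 and 23 genes slower and 13, 11, 5, 4 and 3 faster. The median GC content was 54.9% in slower, 42.8% in faster and 48.6% in all genes tested. Genes in the highest quintile of GGAC words per kb of exon had a median of 0.055 and of the lowest -0.089, and 22 and 10 genes were slower. GC content rises along the same quintiles, from a median of 40.2% to 59.1%, so the words and the composition cannot be told apart here. The total exon length gave a weaker order, from -0.005 in the shortest to -0.055 in the longest quintile. Among measures added after the data were seen, the 3′ UTR length ran from -0.012 in the shortest to -0.057 in the longest quintile, and genes of the quintile with the most ATTTA words in the 3′ UTR stood at -0.079 with 1 gene slower and 11 faster.

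The order by exon blocks was also present within classes alike in the other measures. In the lowest GC quintile, genes with 4 or fewer blocks had a median of 0.033 and those with 10 or more -0.12, and in the highest 0.21 and 0.076. In the quintile most lost in DMSO at 6 days the medians were 0.23 with 4 or fewer blocks, 0.14 with 5 to 9 and 0.056 with 10 or more, where 23, 13 and 1 genes were slower. In the most stable quintile they were -0.011, -0.073 and -0.062. A short-lived transcript of a gene with many exon blocks was thus rarely among the slower ones. In that class 1 of 1108 tested genes was called, against 23 of 871 with few blocks. By count level the order was 0.16 and -0.033 in the middle quintile and -0.005 and -0.063 in the highest. Genes in the lowest quintile of count level, at most 1.58 CPM, gave 0 slower and 2 faster calls by edgeR and are left out of all medians given here.

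**Figure D4:**
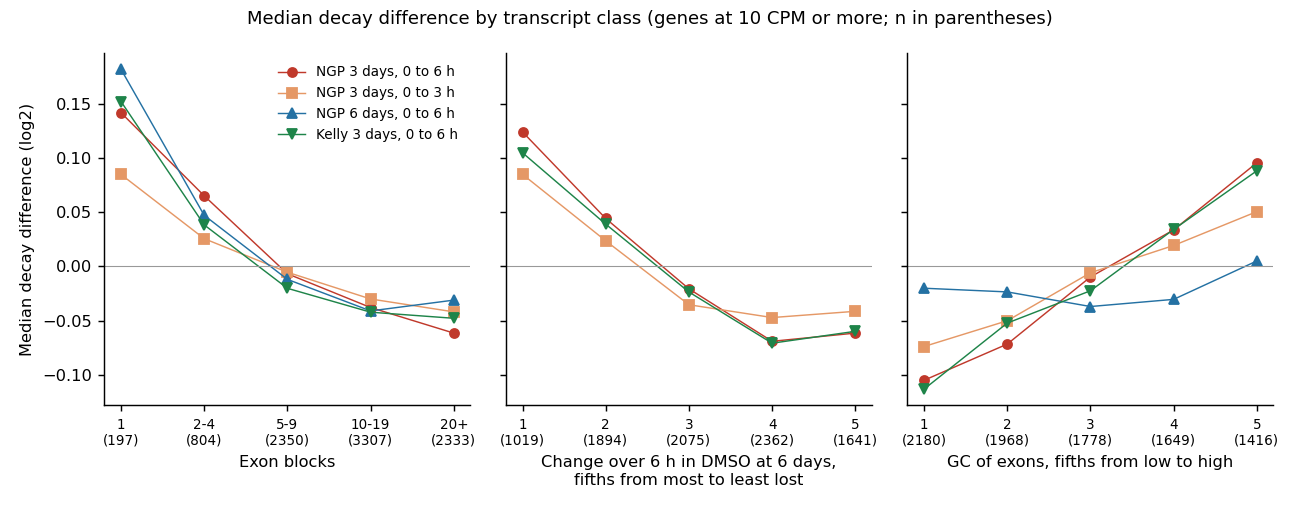
Median decay difference on the log2 scale (vertical axis) by number of exon blocks, by quintile of the change over 6 h in DMSO at 6 days and by quintile of GC content, for genes at 10 CPM or more; symbols mark NGP at 3 days over 0 to 6 h and over 0 to 3 h, NGP at 6 days and Kelly at 3 days, and the 6-day values are left out of the middle panel, whose quintiles were made from the same libraries. From 1 block to 10 to 19 blocks medians fall in every series, with those of 20 or more slightly higher again in NGP at 6 days, while the rise with GC content is seen at 3 days in both lines and not in NGP at 6 days.

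The median difference of the 67 slower genes was 0.47 over 0 to 3 h against 1.01 over 0 to 6 h, and that of the 36 faster genes -0.23 against -0.40. Both spans use the same 0 h libraries, so these values are not independent. Called over 0 to 3 h alone were 3 genes (0.0205% of those tested), all slower: MYCN (0.42 ± 0.079, adjusted p = 0.00824), HAND2 (0.42 ± 0.078, adjusted p = 0.00824) and SOX12 (0.66 ± 0.13, adjusted p = 0.0194). An unadjusted p under 0.05 was reached by 800 genes in that span. From 3 to 6 h 13 genes (0.0887%) differed, 10 of them slower. HSPA5 (0.69 ± 0.12, adjusted p = 8.70e-04), BYSL (1.68 ± 0.31, adjusted p = 0.00437) and HPDL (2.08 ± 0.41, adjusted p = 0.00824) were among them, so that the larger share of their difference arose after 3 h. At 3 h HSPA5 was left at 87.1% in DMSO and 105% in STM2457, and HPDL at 60.6% and 63.5%. MYCN showed the reverse, its difference being present at 3 h and changing little after. In DMSO and STM2457 18.7% and 25% were left at 3 h and 9.86% and 12.6% at 6 h. From 3 to 6 h its difference was -0.067 ± 0.080. JUND (0.81 over the first 3 h and 0.70 over the next), FAM222A (1.09 and 0.32) and LRRC61 (0.95 and 0.73) had positive values in both spans, neither of which passed the test.

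Before actinomycin D the slower genes stood, in the median, at about the same level in both treatments. Their median difference at 0 h was 0.048, and at 6 h it was 1.13. At 0 h 4 of the 67 were called higher and 6 lower in STM2457. Over all 14661 genes tested 183 were called higher and 359 lower at 0 h, both smaller shares. SOX12 and FEN1 were higher at 0 h (0.39 ± 0.093 and 0.46 ± 0.11, adjusted p = 0.00443 and 0.00422), whereas MYCN, SIX3 and HSPA5 were lower (-0.25, -0.90 and -0.34). The faster genes had a median of 0.17 at 0 h and -0.33 at 6 h. Of the 36, 12 were called higher and 3 lower at 0 h, also larger shares than over all genes. A decay difference contains the 0 h difference with a minus sign, so the levels at 0 and 6 h are not separate evidence.

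The 6-day libraries of NGP cells and the 3-day libraries of Kelly cells share no sample with those at 3 days. At 6 days 58 of the 67 slower genes had a positive decay difference, with a median of 0.44, and 16 were called slower again. Of all 14661 genes tested, 220 were called at 6 days with the sign they had at 3 days. Of the 36 faster genes, 22 had a negative sign and 1 was called, with a median of -0.074. For comparison, 7783 of all 14661 genes had the same sign at both durations. BYSL (1.59), FEN1 (0.74), H2BC11 (1.83), H2AC6 (1.01), MRPS2 (1.09), SOX12 (0.46) and MT-ND2 (0.66) were called slower at 6 days too. The test of the difference between 3 and 6 days called 152 genes (1.04%), 23 of which were also called at 3 days. Of these, HSPA5 and HSPA1B changed sign, from 0.96 and 0.98 at 3 days to -0.69 and -1.20 at 6 days (adjusted p of the difference = 2.12e-11 and 2.15e-05). ATF4 and MTHFD2 did so in the other direction, from -0.65 and -0.44 to 0.65 and 0.78 (adjusted p = 8.98e-08 and 1.75e-08). HAND2 went from 0.53 to -0.13 (adjusted p = 2.94e-05). HSP90AA1, the stress-induced cytosolic HSP90, and DDR2, a collagen receptor, were not called at 3 days (0.020 and -0.25) but at 6 days (-0.68 and 1.06).

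In Kelly cells at 3 days 59 of the 67 slower genes had a positive decay difference and 9 were called, with a median of 0.51. Of the 36 faster genes 28 had a negative one, with 1 called and a median of -0.13. Of all 14661 genes, 8096 had the same sign in both lines, and 32 of these were called in Kelly. SOX12 (1.05 ± 0.17), BYSL (1.67 ± 0.37), FEN1 (0.90 ± 0.16) and HAND2 (0.36 ± 0.077) were called slower and RPL5 (-0.28 ± 0.057) faster there, with adjusted p from 2.13e-04 (SOX12) to 0.0152 (BYSL). MYCN had a value of -0.019 in Kelly, but its difference between the lines was not called (adjusted p = 0.536). The test of the difference between the lines called 1 of 17343 genes (0.00577%), RYR2, a calcium release channel, at -3.36 ± 0.63 (adjusted p = 0.0226), and 1004 genes had an unadjusted p under 0.05. RYR2 was itself not called in NGP (-0.14 ± 0.16). The median standard error of that difference was 0.37 at 10 CPM or more, against 0.24 for the decay difference within NGP, so it was less precise.

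**Figure D5:**
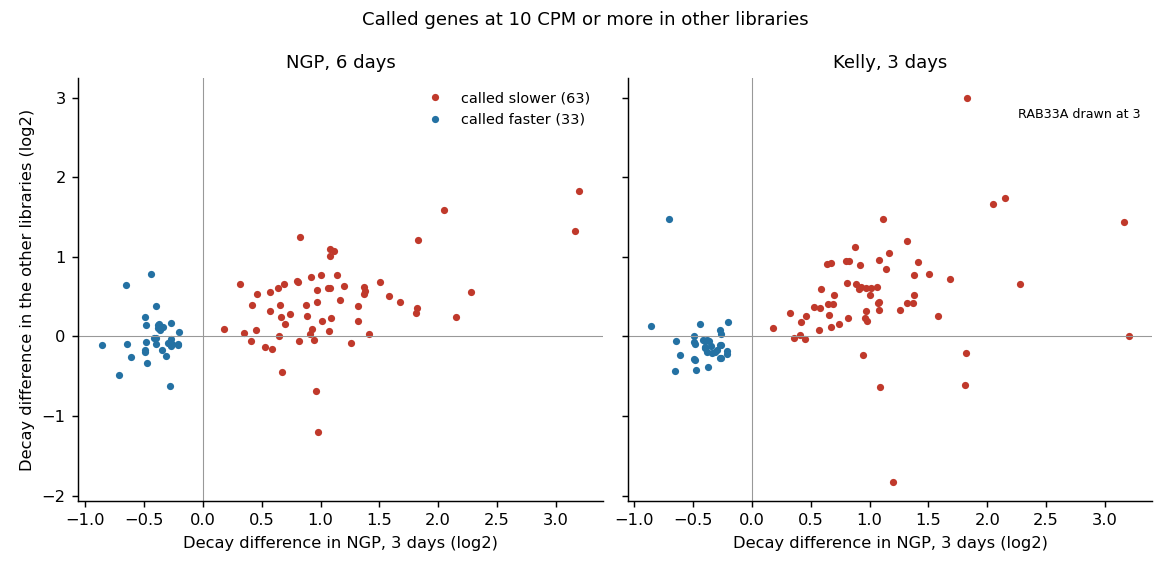
The decay difference in NGP at 3 days (horizontal axis) is plotted against that in NGP at 6 days (left) and in Kelly at 3 days (right), both on the log2 scale, for the 63 slower and 33 faster genes at 10 CPM or more, 1 point a gene. Most slower genes lie above 0 in both panels, while the faster ones scatter around 0 at 6 days and mostly lie just under 0 in Kelly.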

How the data were processed

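The data are 48 tables of raw counts of fragments per gene, 1 for each library, of which 12 are those of NGP cells at 3 days. Counts were made by the authors with featureCounts (1.5.3 of Subread) on exons grouped by gene name, in the protein-coding genes of GENCODE release 33 with 92 ERCC sequences, per the file headers. FastQC 0.11.5, Trimmomatic 0.36 and HISAT2 2.1.0 and the build hg38 (GRCh38) are named in the submitters' processing notes. The counting command names no strand option, per the file headers, so fragments of overlapping genes on opposite strands cannot be told apart. Every count row named a gene or an ERCC sequence, and ERCC rows stayed out of library sizes and tests.

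The 24 NGP libraries (12 groups of 2) were fitted in 1 model without covariates with edgeR 4.0.16 in R 4.3.3: TMM scaling, filterByExpr (which kept 14661 of 19923 genes), glmQLFit and glmQLFTest, with Benjamini-Hochberg adjustment over all genes tested and a threshold of 0.05. The standard error is the log2 value divided by the square root of F. A joint fit of all 48 libraries gave the comparison with Kelly cells. Alternatives were DESeq2 1.42.0, limma-voom (limma 3.58.1), other scalings and filters, a trend on exon length removed, time as a straight line, the replicate number as a block and each of the 12 libraries left out in turn; medians of classes and lists are over genes at 10 CPM or more. The fit was tested on simulated data. Exon blocks, GC content and words were computed from the intervals in the files and hg38, and coding windows from GENCODE release 44, in which 14277 of the 14661 genes had a canonical transcript, matched by symbol. Named were METTL3, MYCN, the 12 slower and 12 faster genes with the largest difference among those called, at 10 CPM or more and with the same sign over 0 to 3 h, up to 3 called members of each list, and up to 3 genes of each comparison with the other libraries; MT-CO1, MT-CO2, RPS29 and BTD were added after their values were seen. Members, gene lists and tests were chosen with earlier results of these data known.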

Additional observations from a re-analysis of the deposited data

Results flagged for a closer look

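The decay difference at 3 days minus that at 6 days in NGP cells passed edgeR's quasi-likelihood test of the difference itself for 18 of the genes described. It was positive for HSPA1B (2.17), HSPA5 (1.65), FAM222A (1.38), SOX12 (0.71), HSP90AA1 (0.70), HAND2 (0.66) and MCM3 (0.47). All of these but HSP90AA1 were called slower at 3 days. FAM222A had 1.41 at 3 days and 0.034 at 6 days, and MCM3 0.41 and -0.064. It was negative for ATF4 (-1.30), MTHFD2 (-1.23), DDR2 (-1.31), MAP2 (-0.79), ANK2 (-0.73), PCM1 (-0.63) and HNRNPDL (-0.45), of which all but DDR2 were lost faster at 3 days. The mitochondrial mRNAs MT-ND4 (-0.49), MT-CO3 (-0.44) and MT-ND2 (-0.34) were negative as well: MT-ND4 and MT-CO3 had 0.11 and 0.17 at 6 days, and MT-ND2 was slower at both durations (0.32 and 0.66). CHAC1, a glutathione-degrading enzyme induced by ATF4, had -10.6, but its counts went down to 0 in some libraries, so this fitted value depends on the prior count and is no measure of size. RYR2 passed the test of the difference between NGP and Kelly cells (-3.36): its decay difference was -0.14 ± 0.16 in NGP and 3.24 ± 0.56 in Kelly. The STM2457 libraries before actinomycin D at 6 days also carried more fragments in olfactory receptor genes, at 12.2 and 21.7 CPM in sum against 3.62 and 4.0 CPM in their DMSO controls. At 3 days it was the pair at 6 h that stood apart. The part of this in the differences between 3 and 6 days was not tested.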

How the results depend on the processing

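All 67 slower and 36 faster genes kept their direction in each of the 11 alternative fits and the 12 fits that leave out a library. The counts of slower and faster genes were 109 and 56 with DESeq2, 34 and 20 with limma-voom, 154 and 4 with ERCC scaling and 10 and 0 with time as a straight line, and 14 genes were faster with library size alone. In fits chosen after seeing the data, 13 genes were faster when only genes at 10 CPM or more were tested, and 3 were slower and 0 faster over 0 to 3 h with the 6 h libraries left out. Leaving out a library gave 48 to 100 slower and 17 to 43 faster genes; 17 were faster without the first DMSO library and 22 without the second STM2457 library at 0 h, and without each of the other 10 the count stayed within 1.5 times of 36. Over 0 to 3 h, 22 genes were called with DESeq2, 28 with ERCC scaling, 12 without a filter and 5 to 19 without a library. Over 3 to 6 h DESeq2 called 39, ERCC scaling 1070 and the fit without a filter 26 genes, and 35 passed with the length trend removed, 1 with limma-voom, 7 at 10 CPM or more and 22 to 54 without a library. Between 3 and 6 days 239 genes differed with DESeq2, 446 with ERCC scaling, 456 with scaling to long-lived genes and 6 with a straight line. Between NGP and Kelly 8 differed with DESeq2, 1697 with ERCC scaling, 58 without a filter, 0 with limma-voom, 0 with a straight line and 11 to 40 without a library. The change from 0 to 6 h in STM2457 was called for 7489 genes with scaling to long-lived genes. The cause of these shifts was not tested.

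Some medians, taken minus that of all genes, changed sign: those of histone genes (-0.016) and of genes with 5 to 9 exon blocks (-0.000106) with the length trend removed. With each library left out in turn, they ran from -0.044 to 0.0027 in long-lived housekeeping genes, -0.0039 to 0.16 in cholesterol synthesis genes and -0.0082 to 0.044 in nucleolar ribosome assembly genes, with the sign changing without the first DMSO library at 6 h. In protocadherins the range was -0.17 to 0.075, changing sign without the first STM2457 library at 0 h, and in m6A readers and erasers -0.052 to 0.0027, without the first (0.000272) and the second STM2457 library at 6 h. Over 0 to 3 h translation factors (0.000755), solute carriers (0.00596) and H3C3 (-0.57) changed sign. The cause was not tested.

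The replicate numbers did not pair the samples: over 15 pairs of groups, deviations of same-numbered libraries from their group means correlated at -0.0284 to 0.0415 (9089 genes). With the replicate block 81 genes were slower and 39 faster, 8 were called over 0 to 3 h and 45 between the lines. With 2 libraries a group, the median standard error of a decay difference was 0.37 on the log2 scale over all genes and 0.24 at 10 CPM or more. A call took a difference well above its standard error: OXSR1, at -0.64 ± 0.17, passed edgeR's test only by a little (adjusted p = 0.0469). Differences near the median standard error could thus be called for abundant transcripts alone.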

Other observations

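Lists with no or 1 called gene differed in where the medians of their decay differences lay. Proteasome subunits (-0.10, 10 of 34 genes positive) and aminoacyl-tRNA synthetases (-0.094, 10 of 34 positive) lay under the median of all genes at 10 CPM or more (-0.025), as did nuclear genes of oxidative phosphorylation by a little (-0.031, UQCRFS1 being the 1 called), splicing regulators (-0.069), solute carriers (-0.078) and protocadherins (-0.13). HOX cluster genes, 8 of 11 of which were positive, had a median of 0.16, TRIM genes 0.11 and cholesterol synthesis genes 0.086. F-box genes (-0.045), p53 targets (-0.021), nucleolar ribosome assembly genes (0.019) and mesenchymal markers (-0.022) lay within 0.05 of it. Of 25 long-lived housekeeping genes 3 were called, EEF2 slower (4%, beside 0.457% of all genes) and FTH1 and PFN1 faster (8%, beside 0.246%). The median of that list was -0.049. The lists were not tested as lists.

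From 3 to 6 h, 2 well-expressed genes went against the direction of most: RPS29, a protein of the small ribosomal subunit, had -2.753 ± 0.61 (adjusted p = 0.0363) and BTD, the enzyme that frees biotin, -2.22 ± 0.50 (adjusted p = 0.0364), on the log2 scale of the decay difference over that span. Over 0 to 6 h RPS29 had -0.17. Both were picked after their values were seen.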
